A study of Mus musculus with 18 samples.

Results

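The cytosolic ribosomal protein genes were followed in 3 mouse cancer cell lines given sildenafil citrate. They were taken as the rows of the deposited table whose symbol has the form of a ribosomal protein name (Rpl or Rps and a number, with or without a short suffix) or is Rplp0, Rplp1, Rplp2 or Rpsa, and whose counts sum to at least 1000 over the 18 libraries. Of 55450 rows, 89 had such a symbol and 82 reached the minimum. These 82 members comprise 49 of the large and 33 of the small ribosomal subunit, and 80 are annotated as protein-coding, while Rpl6l and Rps3a2 are annotated as processed pseudogenes. Just under the minimum were Rps3a3 with a count sum of 660.7 and Rps12l1 with 357.4, and the lowest sums above it were 5428.2 for Rpl6l and 61862.4 for Rpl22l1. Every member also passed the filter on low counts in each line.

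Sildenafil citrate inhibits PDE5, the phosphodiesterase that breaks down cyclic GMP. The groups were 4T1 mammary carcinoma cells given 100 µM sildenafil citrate for 24 hours in RPMI 1640 and 4T1 cells given the vehicle DMSO, MC38 colon adenocarcinoma cells given 100 µM for 24 hours in DMEM and MC38 cells given DMSO, and LLC (Lewis lung carcinoma) cells given 100 µM for 48 hours in DMEM and LLC cells given DMSO. Each of the 6 groups had 3 libraries, all labelled wild type, from poly(A)-selected stranded libraries. Nothing in the labels tells whether the 3 libraries of a group are separate cultures. Every p-value below therefore rests on the scatter of these libraries alone, and that scatter may be technical.

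Ribosomal proteins assemble with ribosomal RNA into the small subunit, which decodes the mRNA, and the large subunit, which joins amino acids. Most of their mRNAs carry a 5′ terminal oligopyrimidine tract, a C followed by a run of C and T (U in the RNA), through which the kinase mTOR and the protein LARP1 control their translation and stability. Their genes are expressed together at high levels in proliferating cells, and MYC, YY1 and GABP are among the factors known to bind their promoters.

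To show the sequences behind this group, start-site sequences were taken from RefSeq (GRCm38.p6) for members with a single promoter entry, first the 4 such members with the largest falls in MC38 and then the 4 such members with the largest rises in 4T1. Each shows 15 bases before the annotated start and 15 from it, with the longest run of C and T in capitals.
Rpl27a, chr7:109519180-109519209, plus strand: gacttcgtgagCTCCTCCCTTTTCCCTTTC
Rpl13, chr8:123102335-123102364, plus strand: TTCCCTTTCgcctgattttgattggcgttt
Rpl9, chr5:65391417-65391446, minus strand: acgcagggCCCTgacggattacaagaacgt
Rps10, chr17:27635230-27635259, minus strand: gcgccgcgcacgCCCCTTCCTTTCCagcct
Rpl37a, chr1:72711245-72711274, plus strand: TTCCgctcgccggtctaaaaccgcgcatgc
Rps28, chr17:33824548-33824577, minus strand: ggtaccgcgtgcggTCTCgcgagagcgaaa
Rpl36a, chrX:134585639-134585668, plus strand: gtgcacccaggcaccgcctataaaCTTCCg
Rpl41, chr10:128549154-128549183, minus strand: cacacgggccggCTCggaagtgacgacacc

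The longest run was 19 bases in Rpl27a, 13 in Rps10 and 9 in Rpl13, and 3 to 5 bases in the other 5 members shown. RefSeq held 71 promoter entries for 60 of the 82 members. Between 30 bases before and 20 after the start, on the gene's strand, a run of at least 7 C or T was present in 40 of these entries (56.3%), against 29.97% of all 32851 entries, and the letters CTTTC were present in 26.8% against 6.86%. In the window from 250 bases before to 50 after the start, on either strand, CCGGAAG (the core bound by GABP) was found in 36.6% against 8.86%, AAGATGGC (the core bound by YY1) in 11.3% against 2.75%, and TATAAA in 9.86% against 13.6%. The first 2 searches overlap, since a match to CTTTC can lie inside a longer run. Sorted by their result in 4T1, the run had a median of 5 bases in the 9 entries of members that rose, 7.5 in the 44 entries of members that fell and 8 in the 18 entries of members that passed in neither direction. Sorted by their result in MC38, the median was 7 in the 64 entries of members that fell and 5 in the 7 entries of the others. A match describes the annotated sequence alone, and the start sites used in these cells were not measured.

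The libraries differed in more than treatment. The 4T1 libraries held 41070026 to 61600675 counts, the MC38 libraries 29438227 to 36417407 and the LLC libraries 26348659 to 32129786. Protein-coding genes held 97.1% to 97.3% of counts in 4T1 but 87.3% to 89.7% in MC38 and LLC, where the noncoding RNA Rn7sk, which lacks a poly(A) tail, reached 16708 to 29108 CPM (counts scaled to a common library size) against 2.87 to 7.76 CPM in 4T1. The predicted gene Gm26917 had 243 to 284 CPM in sildenafil-treated and 157 to 163 CPM in control 4T1 libraries, 4893 to 5898 against 8898 to 14071 CPM in MC38, and 5883 to 13877 against 9668 to 29653 CPM in LLC. The 6 epithelial markers checked summed to 2340 to 2375 CPM in treated and 2801 to 2867 CPM in control 4T1 libraries. The sums were 1947 to 2100 against 2399 to 2435 CPM in MC38. In LLC they were 183 to 190 against 206 to 228 CPM, with 3 to 5 markers at 0. These markers did not move as a set: in 4T1 Krt19 (log2 fold change 0.81) and Epcam (0.28) rose. Krt7 (-0.72), Krt8 (-0.40), Krt18 (-0.29) and Cdh1 (-0.07) fell in 4T1. In MC38 and LLC nearly all of the sum was Krt8. The 7 leukocyte markers summed to 85.6 to 95.3 CPM in treated and 35.6 to 36.6 CPM in control 4T1 libraries. Elsewhere they summed to at most 10.4 CPM, and 1 to 5 of them were at 0 in a library. Only 2 of the 7 passed the filter on low counts in 4T1, and both were called higher. The 6 fibroblast markers summed to 53.8 to 63.9 CPM in treated and 26.9 to 29.8 CPM in control 4T1 libraries. The sums were 908 to 917 against 969 to 978 CPM in MC38 and 2147 to 2181 against 1103 to 1179 CPM in LLC. Up to 3 of these markers were at 0 in a library. Nearly all of the 4T1 sum was Pdgfra, and most of the LLC sum was Col3a1. In MC38 Col1a1 and Col3a1 were called lower, but Pdgfra and Pdgfrb higher. The 4 endothelial markers summed to at most 2.37 CPM in any library. The nuclear noncoding RNA Malat1 had 100.0 to 137 CPM in treated and 48.1 to 83.3 CPM in control 4T1 libraries and 3123 to 3931 against 1978 to 2043 CPM in MC38, without overlap, and 4809 to 5592 against 5249 to 5701 CPM in LLC, with overlap. The part of these differences in the results below was not tested.

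Ribosomal protein genes held a large share of each library. The 82 members took 7.83%, 7.71% and 7.36% of all counts in sildenafil-treated 4T1 libraries, against 7.71%, 7.81% and 7.90% in controls. In MC38 they took 6.09%, 5.81% and 5.63% in treated libraries, against 6.64%, 6.56% and 6.42% in controls. In LLC they took 7.32%, 7.59% and 7.53% in treated libraries, against 7.02%, 6.84% and 7.88% in controls. Only in MC38 did the treated and control libraries not overlap in this share.

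Averaged by group, the share was 7.63% ± 0.242 in treated and 7.81% ± 0.0951 in control 4T1 libraries (SD, n = 3 each; exact permutation test, two-sided, p = 0.5). It was 5.84% ± 0.228 in treated and 6.54% ± 0.108 in control MC38 libraries (SD, n = 3 each; exact permutation p = 0.1, the smallest that 3 against 3 libraries allow, and 0.3 after adjustment over the 3 lines). It was 7.48% ± 0.141 in treated and 7.25% ± 0.557 in control LLC libraries (SD, n = 3 each; exact permutation p = 0.5). In such bulk samples fewer cells and less RNA per cell cannot be told apart, and a share of the counts does not say how much RNA a cell held.

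**Figure D1:**
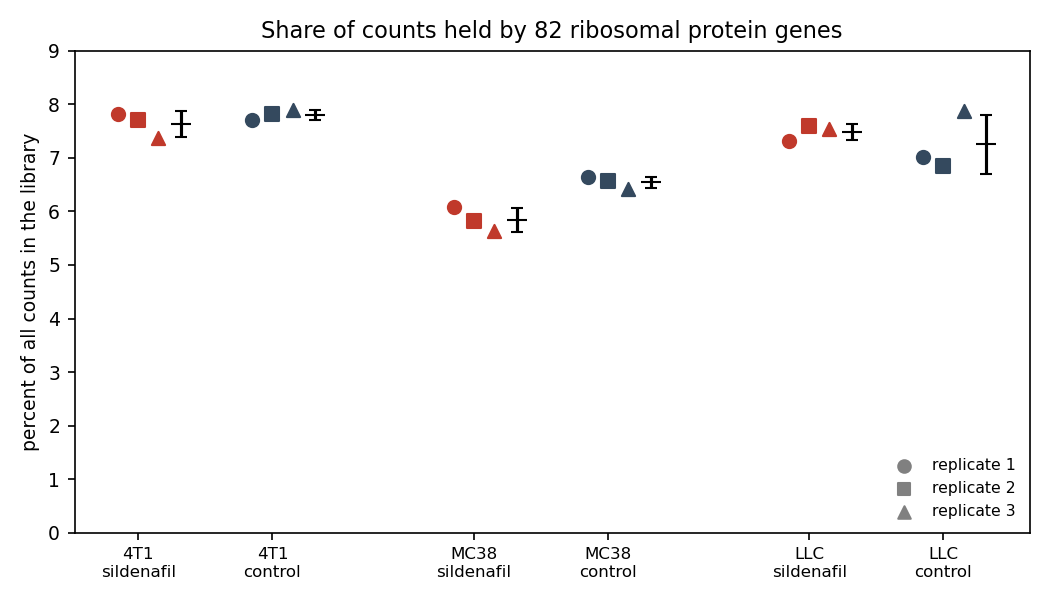
Percent of all counts held by the 82 ribosomal protein genes in each library (y axis, from 0), with sildenafil-treated left of control libraries in each line, a symbol per replicate number and the mean ± SD (n = 3) at the right of each group. In MC38 the 3 treated libraries (5.63% to 6.09%) lie below the 3 controls (6.42% to 6.64%), and in LLC the control library 3 (7.88%) lies above every other LLC library.

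In 4T1 cells, most ribosomal protein genes fell slightly under sildenafil while a minority rose. Of the 82 members, 51 fell and 9 rose at an adjusted p under 0.05 (edgeR quasi-likelihood test, Benjamini-Hochberg over all genes tested), and 22 passed in neither direction. This line responded broadly: 66.7% of 13914 genes tested passed, 33.3% lower and 33.5% higher, so the 62.2% of members that fell exceeds the share of all genes that did, and the 11.0% that rose lies under it. The median log2 fold change (sildenafil over control) was -0.12 over the members and 0.0023 over all genes tested. The groups did not overlap for 61 members, 53 lower and 8 higher in treated libraries, against 71.0% of all genes, 35.3% lower.

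The largest rise was that of Rpl37a, a zinc-binding protein of the large subunit encoded on chromosome 1. It had 439, 410 and 381 CPM in treated 4T1 libraries, against 295, 302 and 312 CPM in controls. The groups did not overlap, and the log2 fold change was 0.44 ± 0.045 (SE; edgeR adjusted p = 2.91e-06).

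Rps28, a small subunit protein, had 466, 470 and 443 CPM in treated libraries, against 373, 378 and 377 CPM in controls, a log2 fold change of 0.29 ± 0.030 (SE; edgeR adjusted p = 1.46e-06). Every treated library was again above every control. Rpl36a rose by 0.19 ± 0.034 on the log2 scale (edgeR adjusted p = 0.000223) and Rps21 by 0.19 ± 0.032 (adjusted p = 0.000172). The others that rose were Rpl21, Rpl24, Rpl39, Rpl41 and Rps27, with log2 fold changes of 0.088 to 0.17. Of the 9 rises, 7 held when any library was left out. Rps27 (adjusted p up to 0.127) held only without sildenafil library 3, and Rpl24 (up to 0.128) only without that library or control 2.

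The largest fall was that of Rpl7l1, the paralog of the large subunit gene Rpl7 on chromosome 17. It had 136, 137 and 132 CPM in treated 4T1 libraries, against 182, 191 and 195 CPM in controls. All 3 treated libraries were below the controls, and the log2 fold change was -0.49 ± 0.034 (SE; edgeR adjusted p = 2.56e-08).

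Rps2, whose small subunit protein is known to bind the arginine methyltransferase PRMT3, had 322, 295 and 262 CPM in treated libraries, against 390, 386 and 413 CPM in controls, a log2 fold change of -0.44 ± 0.071 (SE; edgeR adjusted p = 0.00097). Rps27l, the paralog of Rps27 and a known p53 target, had 85.8, 83.2 and 72.5 CPM against 102, 104 and 106 CPM, a log2 fold change of -0.36 ± 0.054 (edgeR adjusted p = 7.49e-05). Rpl8, whose protein lies close to the peptidyl transferase centre, had 1280, 1253 and 1197 CPM against 1521, 1586 and 1565 CPM, a log2 fold change of -0.33 ± 0.033 (edgeR adjusted p = 1.13e-06). None of these 3 genes overlapped between groups, and each call held when any library was left out.

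The remaining 47 falls were smaller, with log2 fold changes of -0.30 to -0.08. Of the 51 falls, 39 held when any library was left out. Treated library 3 had the lowest value of its group for 81 of the 82 members; without it 51 members fell and 18 rose. With library totals alone as the scale, which shifted the median of all 4T1 genes by 0.07, 32 members fell and 21 rose, and with all 18 libraries in 1 fit 20 fell and 5 rose, so both counts in 4T1 differ between these fits. The 18-library fit also tests other genes and shares 1 estimate of the spread, and which of these moved its counts was not tested. The share of all genes called in these refits is not given here, so no result about the members is read from their counts. The member median lay 0.122 below the median of all genes under either scale. A change of scale shifts every gene by nearly the same amount, so this gap could not test the choice of scale. Settings that change the genes compared can move the gap. Member median minus all-gene median was -0.095942 with a filter of 5 CPM in 3 libraries. It was -0.12698 with no filter and -0.12701 with protein-coding genes alone.

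**Figure D2:**
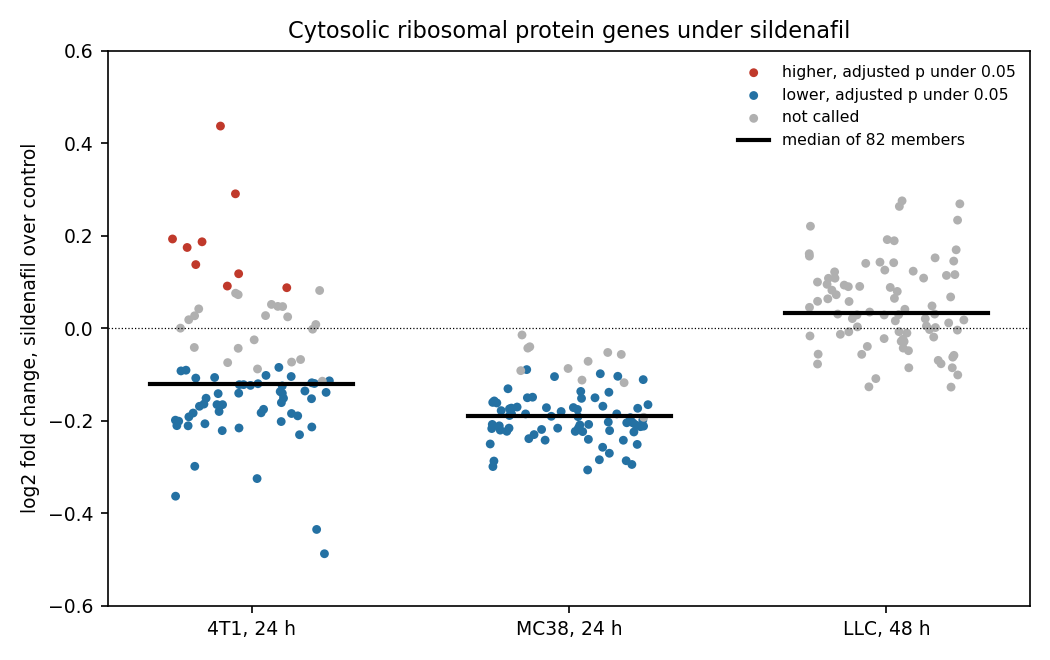
Log2 fold change (y axis, sildenafil over control) of each of the 82 ribosomal protein genes in 4T1, MC38 and LLC, coloured by the edgeR call at an adjusted p of 0.05, with the median as a bar. In 4T1 51 genes fell and 9 rose, in MC38 71 fell, and in LLC none was called.

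In 4T1 most counts of Rps2 and its pseudogenes lay on a pseudogene row, and why was not tested. The pseudogene row Rps2-ps10 held 3485 to 3648 CPM in treated and 4453 to 4569 CPM in control 4T1 libraries, but 5.83 to 10.6 CPM in MC38 and LLC. Pseudogene rows of Rps2 took 91.8% to 92.8% of the counts of the gene and its pseudogenes in 4T1, against 0.27% to 0.40% in the other lines, so the level of Rps2 in 4T1 is uncertain. With the pseudogene counts added, the log2 fold change of Rps2 was -0.41 ± 0.034 (SE; edgeR adjusted p = 1.58e-07), which differed from that of the gene alone by less than its SE. Rpl3-ps1 held 773.5 to 824.9 CPM in 4T1, beside 1096 to 1244 CPM for Rpl3 on the same scale, and 6.30 to 9.43 CPM in MC38 and LLC. Rpl3 in 4T1 had -0.14 ± 0.032 with pseudogene counts added (SE; edgeR adjusted p = 0.00148) and -0.16 alone. Of the 82 members, 79 had an estimated count that was not whole in at least 1 library, as RSEM gives where reads are divided between rows, and 60 had rows named as their pseudogenes, 298 rows in all.

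In MC38 cells, every ribosomal protein gene had a log2 fold change below 0 under sildenafil, though not all were called. At an adjusted p under 0.05, 71 of the 82 members fell and none rose (edgeR quasi-likelihood test), which is 86.6% of members against 18.3% of 13363 genes tested that fell, 19.5% that rose and 37.8% called in all. The falls were of a like size: the quartiles lay at -0.22 and -0.15 on the log2 scale, with a median of -0.19, against 0.004 over all genes. All 3 treated libraries were below all 3 controls for 72 members, against 23.6% of all genes (48.9% without overlap in either direction).

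The largest MC38 fall was that of Rpl27a, a large subunit gene on chromosome 7. It had 543, 521 and 496 CPM in treated libraries, against 648, 657 and 626 CPM in controls. The groups were well apart, and the log2 fold change was -0.31 ± 0.034 (SE; edgeR adjusted p = 4.51e-06).

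Rpl8 had 1162, 1116 and 1044 CPM in treated MC38 libraries, against 1341, 1425 and 1322 CPM in controls, a log2 fold change of -0.30 ± 0.041 (SE; edgeR adjusted p = 0.000108). Rpl13 had 785, 804 and 761 CPM against 973, 971 and 939 CPM, a log2 fold change of -0.29 ± 0.030 (edgeR adjusted p = 1.77e-06). Rpl9 had 690, 682 and 645 CPM against 831, 820 and 811 CPM, a log2 fold change of -0.29 ± 0.030 (edgeR adjusted p = 2.83e-06). Each of these large subunit genes had all treated libraries below all controls. Rps10, whose small subunit protein is ubiquitinated when ribosomes collide, fell by 0.29 ± 0.052 on the log2 scale (edgeR adjusted p = 0.00276).

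The large and small subunit genes moved alike in MC38: 42 of 49 and 29 of 33 fell, with medians of -0.19 in both. The 11 members that did not pass had log2 fold changes from -0.19 (Rpl6l, at about 1 CPM) to -0.01 (Rpl10). Of the 71 calls, 63 held when any library was left out. Treated library 3 was the lowest of its group for 75 members and control 3 was the lowest of its group for 77. Under the scaling alternatives run, between 66 (library totals alone) and 73 members (RLE factors) fell in MC38 and none rose, and with library totals 1 member, not called, lay above 0.

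In LLC cells, given sildenafil for 48 hours, no ribosomal protein gene changed detectably. None of the 82 members passed an adjusted p of 0.05 in edgeR, DESeq2 or limma-voom (3 had an unadjusted p under 0.05 in edgeR), while 27.3% of 13561 genes tested did, 15.1% higher and 12.2% lower. The median log2 fold change was 0.03 over members and -0.0062 over all genes, 54 members lay above 0, and the size of the largest change was 0.28. Treated and control libraries did not overlap for 4 members, 2 in each direction, against 43.9% of all genes, 20.6% lower. The median SE was 0.071 in LLC, against 0.034 in 4T1 and 0.033 in MC38, so changes of the size seen in those lines were harder to detect here.

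The LLC controls differed among themselves. Control library 3 had the highest value of the 3 controls for 81 of the 82 members, and its Gm26917 level was 9668 CPM against 29653 and 21545 CPM in controls 1 and 2. That level lay within the treated LLC range of 5883 to 13877 CPM, while controls 1 and 2 lay above it. Over the members, control 3 lay 0.13 above the mean of its line on the log2 scale, and control 2 lay 0.13 below. Which of the controls is unusual was not tested. Rplp1, for example, had 1476, 1476 and 1418 CPM in treated LLC libraries, against 1208, 984 and 1435 CPM in controls. Its treated libraries lay above controls 1 and 2, while control 3 lay within the treated range.

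The 2 members whose treated LLC libraries all lay above the controls were Rps12 and Rps29, both of the small subunit. Rps12 had 1474, 1512 and 1501 CPM in treated libraries, against 1280, 1188 and 1461 CPM in controls, a log2 fold change of 0.19 ± 0.074 (SE; edgeR adjusted p = 0.0804). Rps29, which coordinates zinc, had 544, 543 and 568 CPM against 470, 360 and 537 CPM, with 0.28 ± 0.140 (edgeR adjusted p = 0.191). In both, control 3 was the control nearest to the treated libraries.

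Those whose treated libraries all lay below were the large subunit genes Rpl4 and Rpl6. Rpl4 had 2007, 2006 and 2031 CPM in treated and 2070, 2108 and 2304 CPM in control LLC libraries (log2 fold change -0.10 ± 0.060, edgeR adjusted p = 0.228). Rpl6 had 1153, 1211 and 1191 CPM in treated and 1230, 1251 and 1292 CPM in control libraries (-0.09 ± 0.051, edgeR adjusted p = 0.233). These 4 genes were picked after their values were seen, except Rps12, and in MC38 Rpl4 and Rpl6 fell by 0.22 ± 0.028 (edgeR adjusted p = 1.91e-05) and 0.27 ± 0.030 (edgeR adjusted p = 5.47e-06).

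Without control 3, 36 members were higher in treated LLC libraries and none lower, against 22.4% of 13742 genes that were then called higher and 43.6% called in all. Rplp1 then had a log2 fold change of 0.42 ± 0.088 (SE; edgeR adjusted p = 0.0116) and Rps13 one of 0.36 ± 0.050 (adjusted p = 5.83e-05). Without treated library 1, 1 member was called higher, and with all 18 libraries in 1 fit 12 were. For those fits the share of all genes called is not given here. The count in LLC thus depends on whether control 3 is kept, and the cause of the difference between the controls was not tested.

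**Figure D3:**
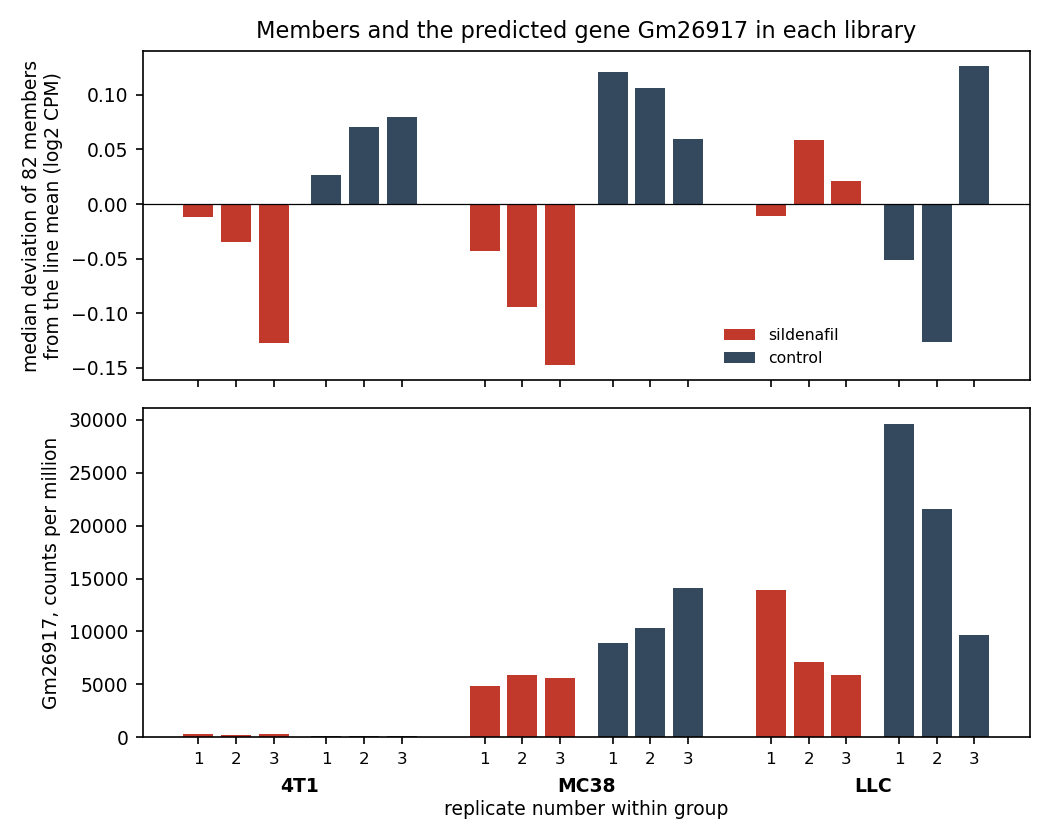
Upper panel: the median over 82 ribosomal protein genes of each library's deviation from the mean of its line (log2 CPM, scaled within the line). Lower panel: CPM of the predicted gene Gm26917. Treated libraries stand left of control libraries in each line, numbered by replicate. All treated libraries of 4T1 and MC38 lie below 0 in the upper panel and all their controls above it, while LLC control 3 (0.13) stands above and LLC controls 1 and 2 (-0.05 and -0.13) below, and it had the lowest Gm26917 level of the LLC controls (9668 CPM).

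Of the 51 members that fell in 4T1 and the 71 that fell in MC38, 47 were the same. This is 92.2% of the 4T1 list and 66.2% of the MC38 list, beside the 86.6% of all members that fell in MC38 and the 62.2% that fell in 4T1, so nothing is read from the overlap. In 7 members (Rpl21, Rpl24, Rpl36a, Rpl37a, Rpl39, Rps21 and Rps27) the calls were opposite, higher in 4T1 and lower in MC38. These lists come from separate control libraries. Rpl6l, Rplp2, Rps16 and Rps3a2 were called lower in 4T1 and not called in MC38, and 5 members, Rpl10, Rpl13a, Rpl28 and Rps29 among them, were called in no line. Over the 82 members the log2 fold changes of 4T1 and MC38 had a Spearman correlation of 0.36, a description over genes that share libraries and are not independent.

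The difference of the responses was tested on all 18 libraries. Between MC38 and 4T1, both at 24 hours, 13 members had a lower and 2 a higher log2 fold change in MC38 (edgeR, adjusted p under 0.05), 18.3% of members against 34.6% of 16040 genes tested, 16.7% lower and 17.9% higher. Rpl37a differed most, by -0.64 ± 0.087 (SE; edgeR adjusted p = 7.22e-06): it had 440, 424 and 393 CPM in treated and 485, 492 and 453 CPM in control MC38 libraries, the opposite order to 4T1. Of the 7 members with opposite calls, the difference passed for Rpl37a, Rpl36a, Rpl21 and Rpl24 and did not for Rps21 (adjusted p = 0.124), Rps27 (adjusted p = 0.119) and Rpl39 (adjusted p = 0.239). The members with the higher value in MC38 were Rpl7l1 (0.28 ± 0.074, edgeR adjusted p = 0.00396) and Rps2 (0.23 ± 0.076, adjusted p = 0.0196). The call for Rps2, whose level in 4T1 is uncertain, was lost without 4T1 control 3, 4T1 treated library 3 or MC38 treated library 1 (up to 0.0801). Without any 1 of these 3 libraries, 1 higher member was left.

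**Figure D4:**
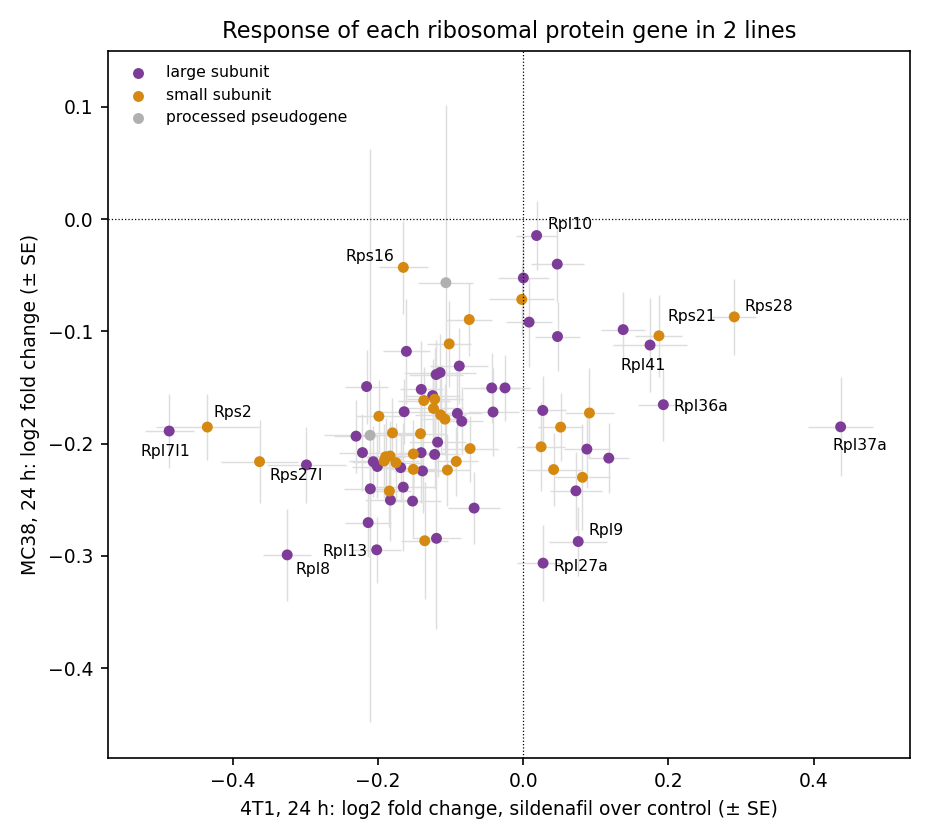
Log2 fold change (sildenafil over control, ± SE) of each ribosomal protein gene in MC38 (y axis) against 4T1 (x axis), coloured by subunit, with the 2 processed pseudogenes in grey. All 82 points lie below 0 on the MC38 axis, 60 lie below 0 on the 4T1 axis, and Rpl37a (0.44 in 4T1, -0.19 in MC38) lies farthest to the right.

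Against LLC, time differs as well as line, and between LLC and 4T1 so do medium and library make-up. The values are set side by side with these limits. The log2 fold change was higher in LLC than in MC38 for 46 members and lower for none (edgeR), 56.1% of members against 22.3% of all genes, 12.6% higher and 9.68% lower. The count was 77 without LLC control 3, and 30 without LLC control 1, 25 without LLC treated library 2 and 28 without LLC treated library 3. It was 29 without MC38 control 1 or control 2, 30 without MC38 treated library 2 and 24 without MC38 treated library 3. Against 4T1, it was higher in LLC for 19 members and lower for Rpl37a, 24.4% of members against 42.0% of all genes, 21.8% higher and 20.2% lower. The 19 became 58 without LLC control 3 and 12 without 4T1 treated library 3, and 3 were lower without LLC control 2. The share of all genes called in these leave-one-out fits is not given here. Within LLC alone that share was 27.3% with all libraries and 43.6% without control 3, so no result about the members is read from these counts. The largest LLC difference was that of Rpl7l1, which had 152, 164 and 173 CPM in treated and 134, 140 and 155 CPM in control LLC libraries (LLC minus 4T1 0.68 ± 0.074, edgeR adjusted p = 1.03e-07).

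Rps13, a small subunit gene, was named because its difference between LLC and each other line was among the 4 largest. The median difference over the members was 0.13 for LLC minus 4T1 and 0.24 for LLC minus MC38. Rps13 had 484, 475 and 457 CPM in treated 4T1 libraries, against 531, 544 and 534 CPM in controls. In MC38 it had 389, 372 and 357 CPM in treated libraries, against 447, 440 and 436 CPM in controls. In LLC it had 488, 510 and 501 CPM in treated libraries, against 414, 366 and 506 CPM in controls. Treated libraries were below all controls in 4T1 and MC38 and above 2 of the 3 controls in LLC, and the response was higher in LLC by 0.40 ± 0.111 than in 4T1 (SE; edgeR adjusted p = 0.00743) and by 0.48 ± 0.112 than in MC38 (edgeR adjusted p = 0.00551). For Rpl27a, the largest fall in MC38, the response was higher in LLC than in MC38 by 0.41 ± 0.102 (edgeR adjusted p = 0.00678), and in MC38 it was lower than in 4T1 by 0.35 ± 0.101 (edgeR adjusted p = 0.0116), where the gene had 723, 688 and 653 CPM in treated and 676, 670 and 680 CPM in control libraries.

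**Figure D5:**
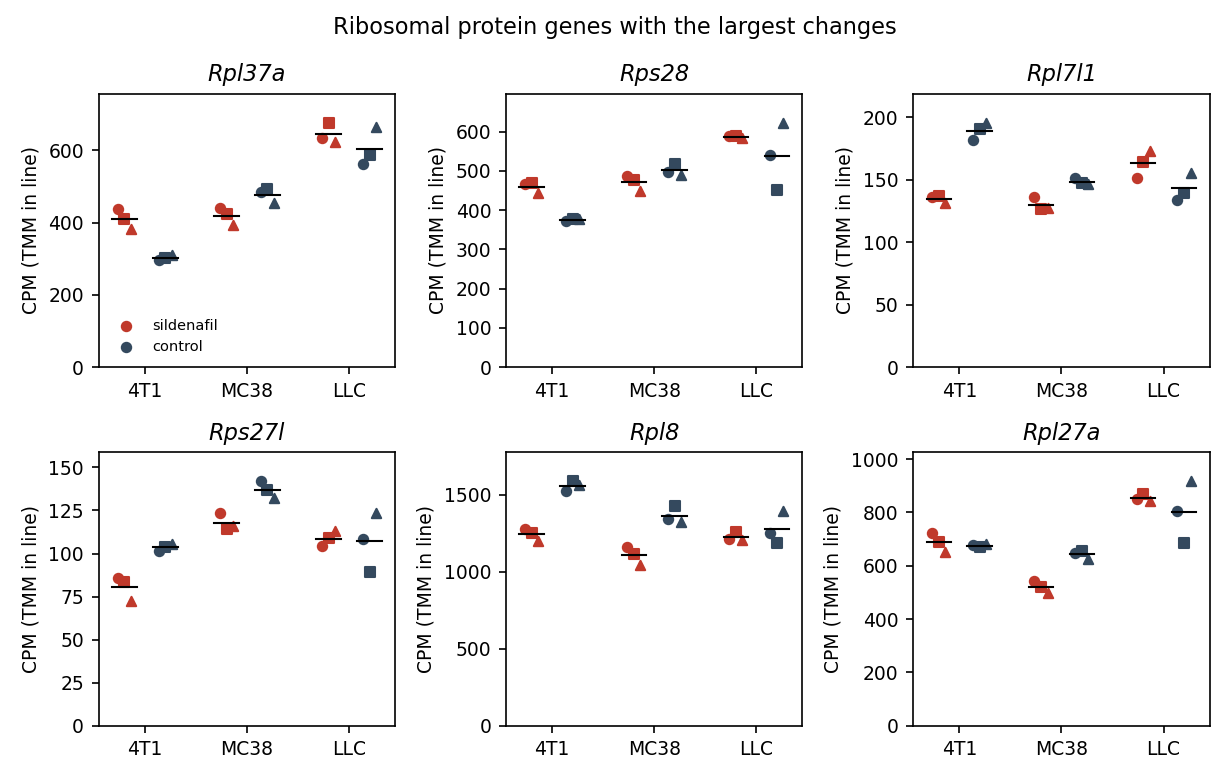
CPM (counts scaled by TMM within each line, y axes from 0) of 6 ribosomal protein genes in every library, sildenafil (red) left of control (dark) in each line, a symbol per replicate number and the group mean as a bar. Rpl37a and Rps28 stand higher in treated than in control 4T1 libraries and Rpl7l1, Rps27l and Rpl8 lower, while Rpl27a overlaps in 4T1 and stands lower in treated MC38 libraries.

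By role, the acidic stalk, which recruits elongation factors to the large subunit, followed the group. Its base Rplp0 had 2756, 2679 and 2537 CPM in treated MC38 libraries, against 2961, 3014 and 2914 CPM in controls, a log2 fold change of -0.16 ± 0.033 (SE; edgeR adjusted p = 0.00139). In 4T1 it fell by 0.12 ± 0.038 (edgeR adjusted p = 0.0103), a call lost without 4T1 control 2 (adjusted p = 0.0571). Rplp1 had 1042, 1039 and 904 CPM in treated and 1166, 1213 and 1142 CPM in control MC38 libraries, without overlap. Rplp1 fell by 0.17 ± 0.043 in 4T1 and 0.24 ± 0.057 in MC38 (edgeR adjusted p = 0.00417 and adjusted p = 0.014). Rplp2 fell by 0.16 ± 0.032 in 4T1 (edgeR adjusted p = 0.000523) and had -0.12 ± 0.047 in MC38 (adjusted p = 0.0758). Rpsa, a small subunit protein also known as the laminin receptor, had 4525, 4555 and 4276 CPM in treated and 4843, 5011 and 4980 CPM in control 4T1 libraries, and 2086, 2041 and 1964 CPM in treated and 2332, 2390 and 2320 CPM in control MC38 libraries. It fell by 0.15 ± 0.034 in 4T1 and 0.21 ± 0.030 in MC38 (edgeR adjusted p = 0.00133 and adjusted p = 5.8e-05). In LLC these 4 genes had log2 fold changes of -0.03 to 0.27 with none called.

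Rpl5 and Rpl11, chosen here after their values were seen, join the 5S ribosomal RNA in a particle that can bind Mdm2. They parted in 4T1, where Rpl5 fell by 0.17 ± 0.037 on the log2 scale (edgeR adjusted p = 0.00106) and Rpl11 had 608, 588 and 549 CPM in treated and 558, 550 and 551 CPM in control libraries (0.07 ± 0.036, adjusted p = 0.0897). In MC38 both fell, Rpl5 by 0.22 ± 0.030 (edgeR adjusted p = 3.62e-05) and Rpl11 by 0.24 ± 0.035 (adjusted p = 6.16e-05). The response of Rpl11 was lower in MC38 than in 4T1 by 0.33 ± 0.068 (edgeR adjusted p = 0.000527), while for Rpl5 the difference of -0.07 ± 0.066 did not pass (adjusted p = 0.483).

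Rpl7l1, Rpl22l1 and Rps27l, paralogs that are members in their own right, fell in both 24-hour lines, while the paralogs Rpl3l, Rpl10l, Rpl39l and Rps4l had count sums of 4, 1, 0 and 0 and were not members. Rpl7l1 fell by 0.49 in 4T1 and 0.19 ± 0.033 in MC38 (edgeR adjusted p = 0.00034), against -0.12 ± 0.035 and -0.21 ± 0.031 for its partner Rpl7 (adjusted p = 0.0076 and adjusted p = 6.47e-05). Rps27l fell by 0.36 in 4T1 and 0.22 ± 0.037 in MC38 (adjusted p = 0.000272), while its partner Rps27 had 0.09 in 4T1 and fell by 0.17 ± 0.040 in MC38 (adjusted p = 0.00438). Rpl22l1 fell by 0.14 ± 0.030 in 4T1 (adjusted p = 0.000898) and 0.15 ± 0.043 in MC38 (adjusted p = 0.0115), the MC38 call being lost without MC38 control 1 (adjusted p = 0.0779) or treated library 1, and its partner Rpl22 fell by 0.08 ± 0.029 in 4T1 (adjusted p = 0.0184, lost without 4T1 control 2 or control 3, up to 0.0577) and 0.18 ± 0.030 in MC38 (adjusted p = 0.000229). The difference between a paralog and its partner was not tested.

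Of the 9 members that rose in 4T1, 7 were among the shortest. Of the 27 protein-coding members with a coding sequence of up to 401 bases, 7 rose and 14 fell in 4T1, and of the 27 above 572 bases none rose and 21 fell. Among the other protein-coding genes tested in 4T1, 35.2% of the 620 short ones rose and 28.7% fell, and 36.5% of the 10466 long ones rose and 36.4% fell, so the 25.9% of short members that rose lies under the share of other short genes. Over the 80 protein-coding members the log2 fold change and the coding length had a Spearman correlation of -0.31 in 4T1, -0.22 in MC38 and -0.50 in LLC. Over the other protein-coding genes it was -0.01, -0.06 and -0.26. In LLC the shortest members had a median of 0.12, beside 0.13 over the 617 other short protein-coding genes tested, and the longest members had 0.0029, beside 0.00051 over the other long ones. These are descriptions over genes of the same libraries, and no cause of the relation was tested.

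Of the ribosomal proteins whose symbols lie outside the name pattern, Rack1, a scaffold on the small subunit, followed the group. It had 1973, 1964 and 1836 CPM in treated 4T1 libraries, against 2067, 2112 and 2181 CPM in controls (log2 fold change -0.14 ± 0.035, edgeR adjusted p = 0.00326), and fell by 0.17 ± 0.030 in MC38 (adjusted p = 0.000328). Fau, which encodes Rps30, had log2 fold changes of -0.0077 in 4T1, -0.02 in MC38 and 0.03 in LLC, none called.

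The mitochondrial ribosomal protein genes fell more than the cytosolic ones in 4T1 and less in MC38 by their medians. In 4T1 54 of the 80 tested fell and 5 rose, with a median of -0.29, and in MC38 38 of 79 fell and 2 rose, with a median of -0.11. In LLC 9 fell and 6 rose of 79, with a median of 0.0044. Over all genes tested, 33.3% fell in 4T1, 18.3% in MC38 and 12.2% in LLC, with medians near 0. Mrps22, a small mitochondrial subunit gene, had 34.1 ± 0.308 CPM in treated and 58.8 ± 3.22 CPM in control 4T1 libraries (SD, n = 3 each; log2 fold change -0.79 ± 0.043 SE, edgeR adjusted p = 3.01e-09). Mrps21, picked after its values were seen, rose by 0.45 ± 0.052 (edgeR adjusted p = 4.4e-06).

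Initiation factor genes fell almost throughout in both 24-hour lines, 15 of 16 in 4T1 (median -0.36) and 14 of 16 in MC38 (median -0.22). Of all genes tested, 33.3% fell and 33.5% rose in 4T1, 18.3% and 19.5% in MC38, and 12.2% and 15.1% in LLC. Eif4e, which binds the mRNA cap and was picked after its values were seen, had 174 ± 8.31 CPM in treated and 231 ± 5.65 CPM in control 4T1 libraries (SD, n = 3 each; -0.41 ± 0.036 SE, edgeR adjusted p = 2.68e-07), and fell by 0.28 ± 0.029 in MC38 (adjusted p = 2.59e-06). Eif4ebp1, the repressor of Eif4e that mTOR inactivates, fell by 0.33 ± 0.036 in 4T1 (adjusted p = 2.59e-06) and was the 1 list member to rise in MC38, by 0.33 ± 0.031 (adjusted p = 8.37e-07). In LLC 2 initiation factors fell and 1 rose. Also checked were 17 other genes, most of them for translation factors, whose mRNAs are known to carry the oligopyrimidine tract. Of these, 8 fell and 2 rose in 4T1, 12 fell in MC38 and 1 fell in LLC. In 4T1 47.1% of the 17 fell and 58.8% were called in all, against 33.3% and 66.7% of all genes tested. Eef1g fell by 0.32 ± 0.037 in 4T1 (adjusted p = 4.09e-06) and 0.25 ± 0.028 in MC38 (adjusted p = 5.56e-06), whereas Naca, also picked after its values were seen, rose by 0.19 ± 0.036 (adjusted p = 0.000326) in 4T1 and fell by 0.20 ± 0.031 in MC38 (adjusted p = 0.000135). With library totals as the scale the 4T1 count of these 17 became 7 lower and 7 higher.

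Of 9 genes for the dedicated chaperones that carry ribosomal proteins to the assembling subunits, 8 fell and 1 rose in 4T1, with a median of -0.58. Of all genes tested in 4T1, 33.3% fell and 33.5% rose. Grwd1, whose yeast counterpart is the chaperone of Rpl3, had 34.2, 35.8 and 34.5 CPM in treated 4T1 libraries, against 72.5, 76.9 and 75.9 CPM in controls. All treated libraries lay below all controls, with a log2 fold change of -1.11 ± 0.038 (SE; edgeR adjusted p = 3.23e-11), and in MC38 Grwd1 fell by 0.39 ± 0.040 (adjusted p = 2.05e-06). Heatr3, which in yeast and human cells carries Rpl5, fell by 0.80 ± 0.040 in 4T1 (adjusted p = 1.22e-09) and 0.40 ± 0.029 in MC38 (adjusted p = 5.17e-08). Tsr2, in yeast the chaperone of Rps26, fell by 0.86 ± 0.049 in 4T1 (adjusted p = 3.95e-09) and rose by 0.54 ± 0.064 in LLC (adjusted p = 0.000384), with 27.1, 27.8 and 28.4 CPM in treated and 18.3, 18.3 and 20.6 CPM in control LLC libraries. In MC38 5 of the 9 chaperone genes fell and 1 rose, and in LLC 2 rose. The shares of all genes were 18.3% lower and 19.5% higher in MC38, and 12.2% lower and 15.1% higher in LLC.

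Among 14 regulators of ribosomal protein genes or of p53, 7 fell and 4 rose in 4T1, 5 fell and 3 rose in MC38, and 7 fell and 2 rose in LLC. In 4T1 78.6% of the 14 were called, against 66.7% of all genes tested. The shares were 57.1% against 37.8% in MC38 and 64.3% against 27.3% in LLC. Myc, which drives ribosome production, had 287, 289 and 285 CPM in treated 4T1 libraries, against 658, 670 and 681 CPM in controls (log2 fold change -1.22 ± 0.028 SE, edgeR adjusted p = 1.41e-12). It also fell by 0.51 ± 0.094 in LLC (adjusted p = 0.00668) and by 0.19 ± 0.047 in MC38 (adjusted p = 0.00593), the MC38 call being lost with all 18 libraries in 1 fit. Whether Myc had a part in the values of the members was not tested. Larp1, which binds the oligopyrimidine tract, fell by 0.40 ± 0.030 in 4T1 (adjusted p = 6.5e-08) and 0.37 ± 0.037 in MC38 (adjusted p = 2.51e-06). Trp53, which encodes p53, fell by 0.92 ± 0.053 in 4T1 (adjusted p = 2.68e-08) and by 0.10 ± 0.036 in MC38 (adjusted p = 0.0366), a call lost when any MC38 library but treated library 2 was left out, and had 0.11 ± 0.104 in LLC (adjusted p = 0.468). Mdm2, which marks p53 for degradation, rose by 0.19 ± 0.042 in MC38 (adjusted p = 0.00171) and by 0.10 ± 0.041 in 4T1 (adjusted p = 0.0467), a 4T1 call lost without control 1, control 2, treated library 1 or treated library 2 and in DESeq2, and had 0.05 ± 0.047 in LLC (adjusted p = 0.461). Cdkn1a, a p53 target, rose by 0.35 ± 0.044 in 4T1 (adjusted p = 1.15e-05) and by 1.21 ± 0.124 in MC38 (adjusted p = 2.09e-06), where it had 4.94, 4.94 and 5.73 CPM in treated and 2.22, 2.30 and 2.24 CPM in control libraries, and fell by 1.05 ± 0.126 in LLC (adjusted p = 0.000402).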

How the data were processed

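The values are expected counts, which the authors made with RSEM (1.3.1). The submitters' processing notes also name STAR (2.7.0f), cutadapt (1.18), bcl2fastq (2.17) and the build mm10. No source used here states the gene annotation's release or whether strand was used in counting. All 55450 gene IDs matched GENCODE M21 (GRCm38), which supplied positions and gene types. RSEM divides reads that match several rows, so a ribosomal protein gene can share reads with its pseudogenes.

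The estimated counts were rounded to whole numbers. Within each line, genes were filtered by filterByExpr, scaled by TMM and tested with the quasi-likelihood test of edgeR (4.0.16, R 4.3.3) on 6 libraries, with Benjamini-Hochberg adjusted p-values over all genes tested and a threshold of 0.05. Differences between lines came from 1 fit of 18 libraries. CPM values are TMM-scaled within a line, except those of Rn7sk, Gm26917, pseudogenes and marker sums, which are per library total. Shares were compared by an exact permutation test. The tests were checked on simulated counts. The alternatives were DESeq2 (1.42.0), limma-voom (3.58.1), other scalings and filters, added pseudogene counts, a replicate block and leaving out each library.

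Genes were named by a rule: up to 4 of the largest rises and falls among called members in each line, up to 4 of the largest called differences per pair of lines, up to 3 genes per list and line by adjusted p, and the stalk genes, Rpsa, the paralogs with their partners, Fau, Rack1, Myc, Trp53, Mdm2 and Gm26917 whatever their values. Members and lists were chosen with earlier results of these data known. Results for a few genes are not reported here.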

Additional observations from a re-analysis of the deposited data

Results flagged for a closer look

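The results below were picked because the response to sildenafil differed between lines in a test of the difference itself (edgeR on all 18 libraries, adjusted p under 0.05); for each pair of lines the 4 members with the largest size of difference are given, as log2 values, the first line's response minus the second's. Against 4T1, line, culture medium and library make-up (the protein-coding share and Rn7sk level) differ together. Against LLC line and time differ together, and between LLC and 4T1 all of these differ. They cannot be told apart.

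Between MC38 and 4T1, Rpl37a differed by -0.64, Rps28 by -0.39, Rpl9 by -0.38 and Rpl36a by -0.37, each lower in MC38. Of these, Rpl37a and Rpl36a were called higher in 4T1 and lower in MC38, Rps28 was called higher in 4T1 and not called in MC38, and Rpl9 was called lower in MC38 and not called in 4T1. These 4 differences passed when any 1 of the libraries of the 2 lines was left out.

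Between LLC and 4T1, Rpl7l1 differed by 0.68, Rplp1 by 0.43, Rps13 by 0.40 and Rps12 by 0.39, each higher in LLC and each called lower in 4T1. The difference in Rplp1 was lost without 4T1 treated library 3 (edgeR adjusted p = 0.0651).

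Between LLC and MC38, Rplp1 differed by 0.52, Rps13 by 0.48, Rpl27a by 0.41 and Rps10 by 0.40, each higher in LLC and each called lower in MC38. None of these genes was called in LLC itself. Over the members, LLC control 3 lay above the mean of its line by a median of 0.13 on the log2 scale, against -0.05 for control 1 and -0.13 for control 2.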

How the results depend on the processing

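Of 1326 values of the 26 named members in 3 lines under the alternatives, 1241 kept direction and side of the threshold, 44 gained a call, 41 lost one and none reversed. With all 18 libraries in 1 fit, 5 members rose and 20 fell in 4T1 (9 and 51 in the separate fit), 51 fell in MC38 and 12 rose in LLC. With library totals alone, 21 rose and 32 fell in 4T1 (member median -0.0516) and 5 were lower in LLC than in 4T1, against 1. With a filter of 5 CPM in 3 libraries, 14 rose in 4T1 and 4 were lower in LLC than in 4T1, and with no filter 3 rose in LLC. With only the libraries of the 2 lines, 24 members were lower in MC38 than in 4T1, against 13. The cause of these shifts was not tested, and the share of all genes called under most alternatives is not given here. Leaving out 1 library gave 7 to 18 rises in 4T1, 0 to 36 in LLC, 1 to 2 higher in MC38 than in 4T1, 12 to 58 higher and 1 to 3 lower in LLC than in 4T1, and 24 to 77 higher in LLC than in MC38.

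Replicate numbers did not pair the libraries: same-numbered treated and control libraries deviated together with correlations of 0.047, 0.049 and -0.072 in 4T1, 0.076, 0.010 and 0.24 in MC38, and 0.14, -0.051 and 0.12 in LLC. With a replicate block, 8 members rose and 50 fell in 4T1, 76 fell in MC38 and 1 rose in LLC.

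The median SE of members was 0.071 in LLC, against 0.034 in 4T1 and 0.033 in MC38, so small changes were harder to detect in LLC. Reads that may be shared between genes and pseudogene rows limit what is known of the level of Rps2 and Rpl3 in 4T1. The same holds for Rpl6l and Rps3a2, at 0.90 to 5.1 CPM in MC38 and LLC. Rps3a2, annotated as a processed pseudogene and among the falls in 4T1, had 328 to 381 CPM in that line.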
